A study of Mus musculus with 6 samples.

Results

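The genes described here are 10 members of the TGF-β pathway, measured by bulk RNA-seq in regulatory T cells (Tregs) of neonatal mouse skin and of the skin-draining lymph nodes (SDLNs). They were chosen by name and comprise the ligands Tgfb1 and Tgfb3, the receptors Tgfbr1 and Tgfbr2, the signal transducers Smad2, Smad3, Smad4 and Smad7, and the activators Itgb8 and Lrrc32. All 10 were among the 49315 genes of the count table, and all 10 passed the filter on low counts that left 13572 genes to be tested. Skin and SDLN Tregs each had 3 libraries, whose columns are lettered A to C. All mice were 9-day-old Foxp3-GFP reporter animals with no treatment stated, whose cells glow green when they express Foxp3, the transcription factor that defines Tregs. Each sample pooled 3 animals, and live CD45+ CD4+ Foxp3-EGFP+ cells were sorted. The tissue label names skin in all samples, so groups were taken from the titles.

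TGF-β is secreted in a latent form, in which the mature cytokine is held by its own propeptide. On Tregs, the surface protein GARP, encoded by Lrrc32, anchors this complex, and the integrin αvβ8, whose β chain is encoded by Itgb8, releases the active cytokine. TGF-β then binds the type II receptor Tgfbr2, which phosphorylates the type I receptor Tgfbr1, and this in turn phosphorylates Smad2 and Smad3. These join Smad4 and enter the nucleus, whereas Smad7 blocks the receptor and is itself induced by the signal. In T cells the pathway is known for inducing Foxp3 outside the thymus and for inducing the integrin chain CD103.

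The libraries differed in ways that touch every result below. The skin libraries totalled 3748669 to 11741784 counts and the SDLN libraries 47243498 to 116158706, and a count of 3, used here as the floor of detection, equalled 0.255 to 0.800 CPM (counts scaled to a common library total) in skin and 0.0258 to 0.0635 CPM in SDLN libraries. Of 8 T cell and Treg markers, 5 were over 3 counts in all skin libraries, with summed levels of 3645 to 5765 CPM against 6073 to 7486 CPM in SDLNs. Cd3g, a chain of the T cell receptor complex, was at 719 ± 149 and 1176 ± 40.1 CPM (SD, n = 3 each, edgeR adjusted p = 0.0673). Il2ra, a receptor chain for interleukin-2 that Tregs carry, had the highest skin mean of these markers, with 2232, 1137 and 534 CPM (A to C) against 1047 ± 291 CPM in SDLNs (SD, n = 3). Ikzf2, which encodes Helios, had 110, 2330 and 1458 CPM against 1096 ± 277 CPM, and neither gene passed the threshold. Cd3d had 198, 355 and 276 CPM against 817 ± 127 CPM, and Trac 217, 944 and 973 CPM against a mean of 1292 CPM in SDLNs. Cd3e, another chain of that complex, had 0, 150 and 293 CPM (A to C) against 841 ± 245 CPM in SDLNs (SD, n = 3, edgeR adjusted p = 0.551). Cd4, a gate of the sort, had 0, 158 and 0.221 CPM (A to C) against 437 ± 121 CPM (SD, n = 3, edgeR adjusted p = 0.523). Foxp3 itself was at 0, 28.1 and 0.111 CPM in skin (A to C) and at 105, 139 and 37.8 CPM in SDLNs (A to C). Of 16 myeloid markers, 15 were called higher in skin, and their summed level was 33723 to 57508 CPM in skin against 430 to 770 CPM in SDLNs, led by Cd74 at 20958 ± 5103 against 422 ± 158 CPM (SD, n = 3 each). Pf4, a platelet chemokine, averaged 164 ± 30.4 in skin and 0.112 ± 0.0242 CPM in SDLNs (SD, n = 3 each) and was called higher in skin with edgeR (adjusted p = 0.00380), the only call among 5 endothelial and platelet markers. Of the others, Pecam1 averaged 1.94 and 161 CPM, Itga2b 0.0284 and 0.133 CPM, Cdh5 0 and 0.498 CPM and Kdr 8.63 and 0.0437 CPM in skin and SDLNs, the skin counts of Kdr all coming from library A. All 6 keratinocyte and all 5 melanocyte markers were at 0 counts in the skin libraries, and the leading fibroblast, mast cell and B cell markers there, Col3a1, Cpa3 and Cd79b, were each found in 1 library, at 50.5 CPM in B, 8.54 CPM in A and 2.66 CPM in C. The summed fibroblast markers were at 0, 90.6 and 0.775 CPM (A to C). Of 4 B cell markers 3 were called higher in SDLNs, as were 45.3% of all genes tested. Foxp3 and Cd4, on which the cells were sorted, were thus at or under 3 counts in the libraries labelled skin Tregs A and C, which go against their label in this respect, while Cd3g, Cd3d, Trac, Il2ra and Ikzf2 were over the floor in both. The names of groups and libraries below are those of the labels. The part of cells other than Tregs in the values below was not tested, and in bulk samples fewer cells of a type and less RNA per cell cannot be told apart.

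The members were compared between skin and SDLN Tregs to ask whether the machinery for making, releasing and answering TGF-β differs between both sites. With edgeR's quasi-likelihood test, 4 of the 10 members were called lower in skin at an adjusted p under 0.05, namely Tgfb1, Tgfb3, Smad7 and Itgb8, and 0 were called higher. Over all genes tested, 45.3% were called lower in skin and 1.04% higher, so the share among the members was close to that background. The number called higher stayed 0 at an unadjusted p under 0.05, with DESeq2 and with limma voom. The median log2 fold change (skin over SDLN) was -2.34 over the members and -2.21 over all genes tested. In 5 members the highest skin value was under the lowest SDLN value, against 53.6% of all genes tested, and in 0 members the reverse held, against 2.39%. SDLN Tregs held all 10 members over 3 counts in every library, while skin Tregs A, B and C held 2, 6 and 5 of them. Tgfbr1 was the member over 3 counts in all skin libraries. Of the 13572 genes tested, 13490 were over 3 counts in every SDLN library and 1646 in every skin library. With the library labelled skin Tregs B alone against the SDLN libraries, the log2 fold change was above 0 for Smad2 and Lrrc32 (1.62 and 1.13). It was below 0 for the other members. That fit holds no spread between skin libraries, so no calls are given from it.

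**Figure D1:**
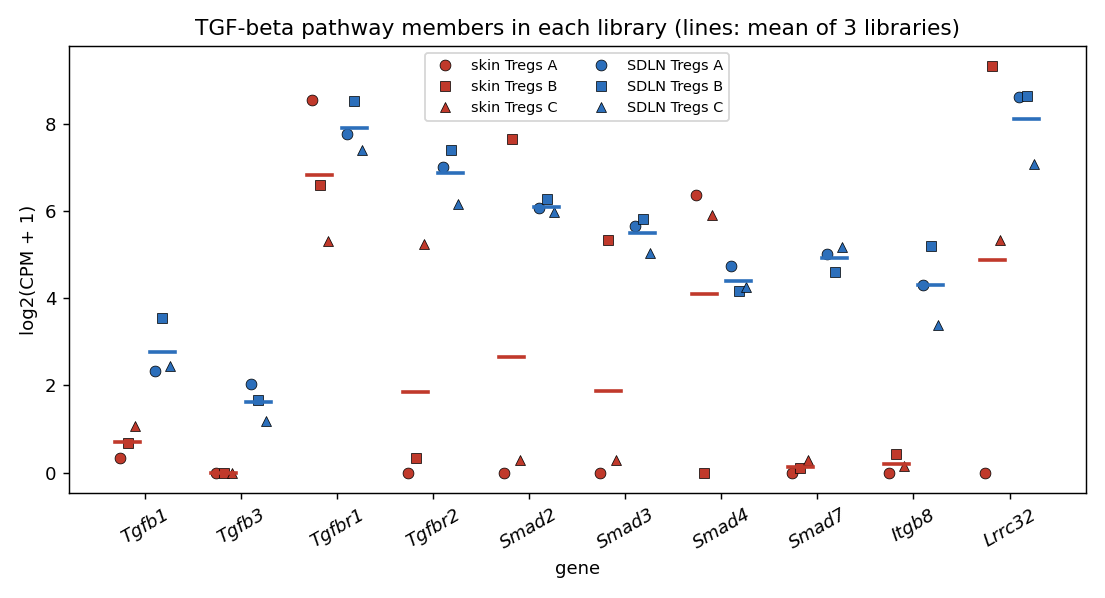
Level of each member in each library, as log2(CPM + 1). Red symbols are skin Tregs A, B and C, blue symbols SDLN Tregs A, B and C, and lines mark the mean of 3 libraries. All SDLN libraries are above 0 for each gene, whereas skin libraries range from 0 to above the highest SDLN library for Smad2, Smad4 and Lrrc32.

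Both ligand genes were called lower in skin Tregs. Tgfb1 (ENSMUSG00000002603, chromosome 7, 25687002 to 25705077, GRCm38), the main TGF-β of the immune system, was at 0.267, 0.596 and 1.11 CPM in skin (A to C), which are 1, 7 and 10 counts. In SDLNs (A to C) it was at 4.02, 10.7 and 4.47 CPM. The groups did not overlap, but every library was low, the highest being SDLN Tregs B. Tgfb1 fell by 3.07 on the log2 scale (SE 0.772, edgeR adjusted p = 0.0196). At the SDLN mean level, 23.9, 75.0 and 57.7 counts would fall in these skin libraries. The call was lost without skin Tregs B (log2 fold change -2.93, adjusted p = 0.0560), and the adjusted p ran from 4.62e-05 to 0.184 over 15 alternatives.

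Tgfb3 (ENSMUSG00000021253, chromosome 12, 86056745 to 86079041), a ligand known from palate and lung development, had 0 counts in all skin libraries. SDLN Tregs A, B and C were at 3.11, 2.17 and 1.27 CPM, which are 361, 158 and 60 counts. With 3 counts in each skin library as the upper limit, Tgfb3 was at least 4.72-fold lower in skin (edgeR adjusted p = 0.00647). At the SDLN mean level, 8.18, 25.6 and 19.7 counts would fall in skin (A to C). When the SDLN libraries were drawn down to the 3748669 counts of the smallest library, they held 11, 6 and 3 counts of Tgfb3, so that its detection at the depth of skin Tregs A was marginal. A gene on the opposite strand, Gm37804, shares exon sequence with Tgfb3 and had 0 counts.

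RefSeq promoter sequence (GRCm38.p6) was matched for 5 of the 10 members, and is printed for Tgfb1 and Itgb8, 1 ligand and 1 activator called lower in skin, which are shown because they stand for making and releasing the cytokine. Each line gives the 250 bases before the start site on the gene's strand, and capitals mark the Smad-binding letters CAGAC or their reverse complement GTCTG.
Tgfb1 (chr7:25686752-25687001, plus strand): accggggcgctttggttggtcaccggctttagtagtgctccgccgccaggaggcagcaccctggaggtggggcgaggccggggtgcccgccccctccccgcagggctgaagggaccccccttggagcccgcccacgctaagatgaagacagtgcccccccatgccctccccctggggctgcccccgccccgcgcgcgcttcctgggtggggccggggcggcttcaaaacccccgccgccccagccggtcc
Itgb8 (chr12:119238277-119238526, minus strand): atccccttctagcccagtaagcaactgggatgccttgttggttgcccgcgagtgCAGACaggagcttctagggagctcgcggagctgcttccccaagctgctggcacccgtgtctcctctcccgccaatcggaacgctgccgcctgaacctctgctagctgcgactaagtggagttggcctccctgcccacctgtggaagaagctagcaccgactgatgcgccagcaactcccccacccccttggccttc
The Tgfb1 window ends where the GENCODE gene begins, whereas the RefSeq start of Itgb8 lies inside the GENCODE span given below, so that its window falls within that span. Itgb8 held 1 match, beginning 196 bases before the start, and Tgfb1 held 0. Of 32851 promoter windows of this length, 42.2% held at least 1 match on either strand, so the match in Itgb8 is a common one.

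Of the activators, Itgb8 passed the threshold and Lrrc32 did not, and the genes were not compared with each other. Itgb8 (ENSMUSG00000025321, chromosome 12, 119158022 to 119238802) stood at 0, 0.341 and 0.111 CPM in skin (A to C), which are 0, 4 and 1 counts, and at 18.9, 35.8 and 9.53 CPM in SDLNs (A to C). All skin libraries lay at or near the floor, far below the lowest SDLN library. Summed over the skin libraries, 5 counts gave 0.204 CPM with an exact Poisson 95% interval of 0.0662 to 0.476 CPM, which covers counting error only, against 22.2 CPM (21.6 to 22.8) in SDLNs. Itgb8 was called lower in skin with edgeR (adjusted p = 0.00610), and in all 15 alternatives that tested it.

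Lrrc32 (ENSMUSG00000090958, chromosome 7, 98489283 to 98502181) stood at 0, 637 and 39.5 CPM in skin (A to C) and at 393, 396 and 134 CPM in SDLNs (A to C). Skin Tregs B, the skin library with Foxp3 over the floor, lay above every SDLN library, and skin Tregs A held no count where 1153 would fall at the SDLN mean level. It averaged 226 ± 357 in skin and 307 ± 150 CPM in SDLNs (SD, n = 3 each). The log2 fold change was -0.35 with an SE of 2.24 (edgeR adjusted p = 0.966). The difference was smaller than the spread between skin libraries, and the log2 fold change was -3.61 without skin Tregs B (adjusted p = 0.342) and 0.076 without skin Tregs A (adjusted p = 0.972).

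Neither receptor gene passed the threshold. Tgfbr1 (ENSMUSG00000007613, chromosome 4, 47353222 to 47414931), the type I receptor kinase, was at 370, 96.2 and 39.0 CPM in skin (A to C) and at 215, 368 and 168 CPM in SDLNs (A to C). Skin Tregs A lay just above the highest SDLN library and the other skin libraries below the lowest. The log2 fold change was -0.86 (SE 0.905, edgeR adjusted p = 0.623). It was -1.92 without skin Tregs A (adjusted p = 0.0818) and -0.45 without SDLN Tregs B (adjusted p = 0.988). Tgfbr2 (ENSMUSG00000032440, chromosome 9, 116084293 to 116175360), which binds the ligand, was at 0, 0.255 and 36.6 CPM in skin (A to C) and at 129, 169 and 70.2 CPM in SDLNs (A to C). The groups did not overlap, and A and B were at the floor. Its log2 fold change, -2.96 with an SE of 2.60, gave an adjusted p of 0.519, which became 0.0159 without skin Tregs C (log2 fold change -9.80).

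Both receptor chains work as a complex, and their ratio was read per kilobase of exon within each library. Tgfbr1 exceeded Tgfbr2 in SDLNs (A to C) by 2.09, 2.73 and 3.00 times. In skin Tregs C, where both were over the floor, the ratio was 1.33, while skin Tregs A and B held 1388 and 1129 counts of Tgfbr1 against 0 and 3 of Tgfbr2.

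**Figure D2:**
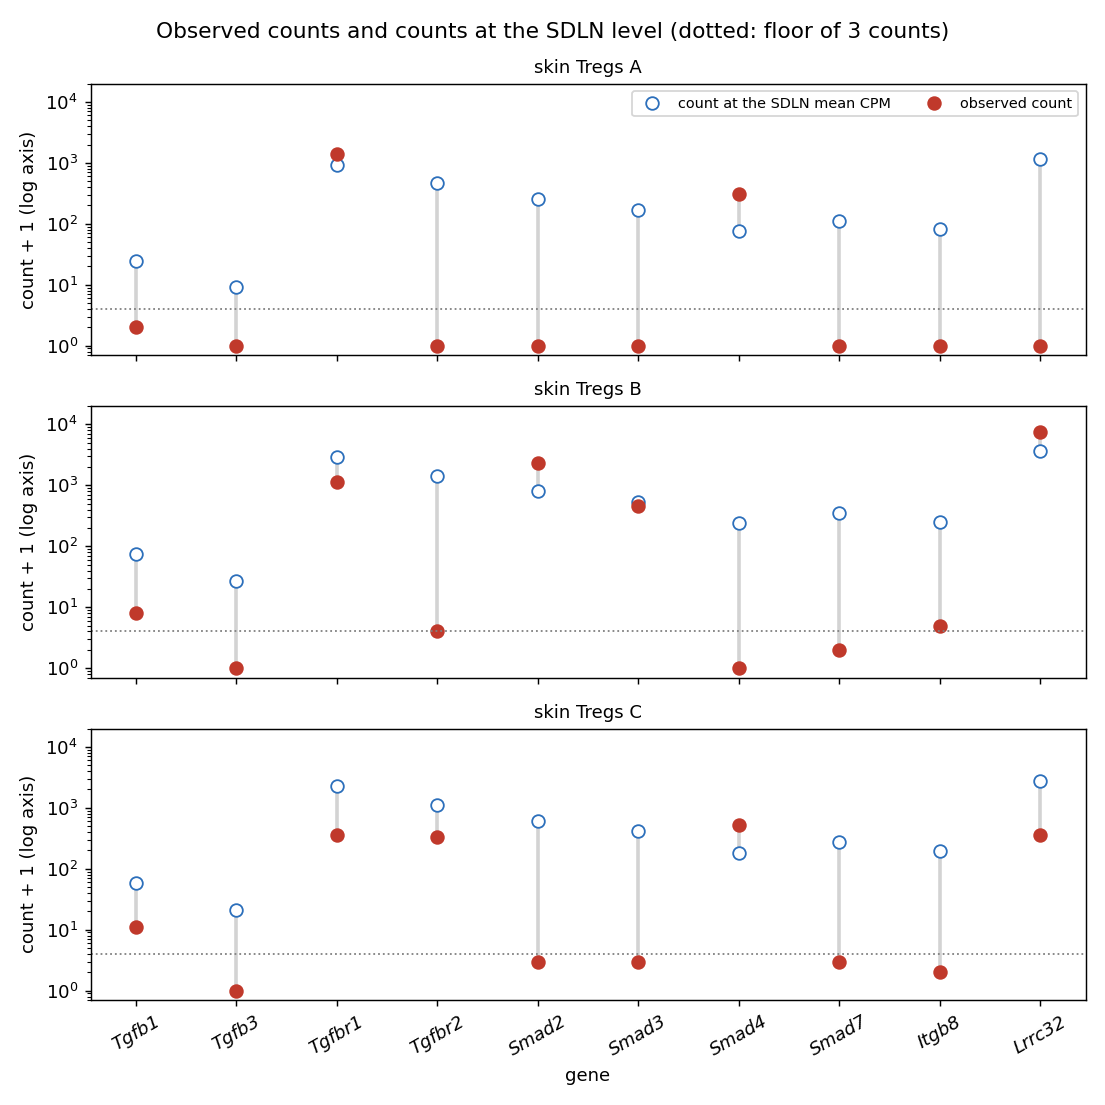
Counts of the members in skin (A to C), on a log axis of count + 1. Filled red circles are observed counts, open blue circles the counts that the mean SDLN CPM would give at that library's total, and the dotted line is the floor of 3 counts. Tgfb3 and Smad7 stand at or under the floor in all panels, and which of the other members do so differs between skin libraries.

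Smad2 and Smad3, the receptor-activated Smads of TGF-β, were over the floor in a single skin library. Smad2 (ENSMUSG00000024563, chromosome 18, 76241580 to 76310963) stood at 0, 201 and 0.221 CPM in skin (A to C), against 66.0, 76.2 and 61.5 CPM in SDLNs (A to C). Smad3 (ENSMUSG00000032402, chromosome 9, 63646767 to 63757994) followed with 0, 39.3 and 0.221 CPM in skin and 49.0, 55.8 and 31.6 CPM in SDLNs. Skin Tregs B lay above the SDLN range for Smad2 and within it for Smad3, while the other skin libraries were at the floor for both. Skin Tregs B was also the skin library with Foxp3, Cd4 and the fibroblast markers, whose part was not tested. Smad2 had means of 67.0 ± 116 and 67.9 ± 7.51 CPM (SD, n = 3 each). Its log2 fold change was 0.044 with an SE of 2.68 (edgeR adjusted p = 0.997). That of Smad3 was -1.71 with an SE of 2.34 (edgeR adjusted p = 0.736). Without skin Tregs B both were called lower in skin with edgeR, at log2 fold changes of -8.83 (adjusted p = 0.0103) and -8.22 (adjusted p = 0.00822).

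Smad4 (ENSMUSG00000024515, chromosome 18, 73639009 to 73703780), the partner shared by all receptor-activated Smads, showed the opposite distribution. It was at 81.1, 0 and 58.8 CPM in skin (A to C) and at 25.8, 16.9 and 18 CPM in SDLNs (A to C). Skin Tregs A and C lay above every SDLN library, whereas skin Tregs B held no count where 238 would fall at the SDLN mean level. The log2 fold change, 1.10 with an SE of 2.14, gave an adjusted p of 0.843 in edgeR. Without skin Tregs A, B or C it was 0.61, 1.67 or 0.39, with adjusted p of 0.879, 0.0739 and 0.922. Smad2 and Smad4 were thus over the floor together in 0 of 3 skin libraries and in all 3 SDLN libraries, in which Smad2 exceeded Smad4 by 1.08, 1.90 and 1.45 times per kilobase of exon. Of 13572 genes tested, 1646 were over the floor in all skin libraries, 5878 in none of them and 13490 in all SDLN libraries. Genes seen in only some skin libraries were therefore common, and nothing is read from this pair.

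Smad7 (ENSMUSG00000025880, chromosome 18, 75367529 to 75395935), the inhibitory Smad, was at 0, 0.0852 and 0.221 CPM in skin (A to C), which are 0, 1 and 2 counts. In SDLNs (A to C) it was at 31.5, 23.4 and 34.8 CPM. All skin libraries were at the floor, where 112, 351 and 270 counts would fall at the SDLN mean level. The same libraries were all at the floor for 5878 of the 13572 genes tested. Smad7 was at least 64.7-fold lower in skin, taking 3 counts in each skin library as the limit, and its edgeR adjusted p was 0.00446. All 15 alternatives that tested it made the call, the adjusted p lying between 2.22e-16 and 0.0484.

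**Figure D3:**
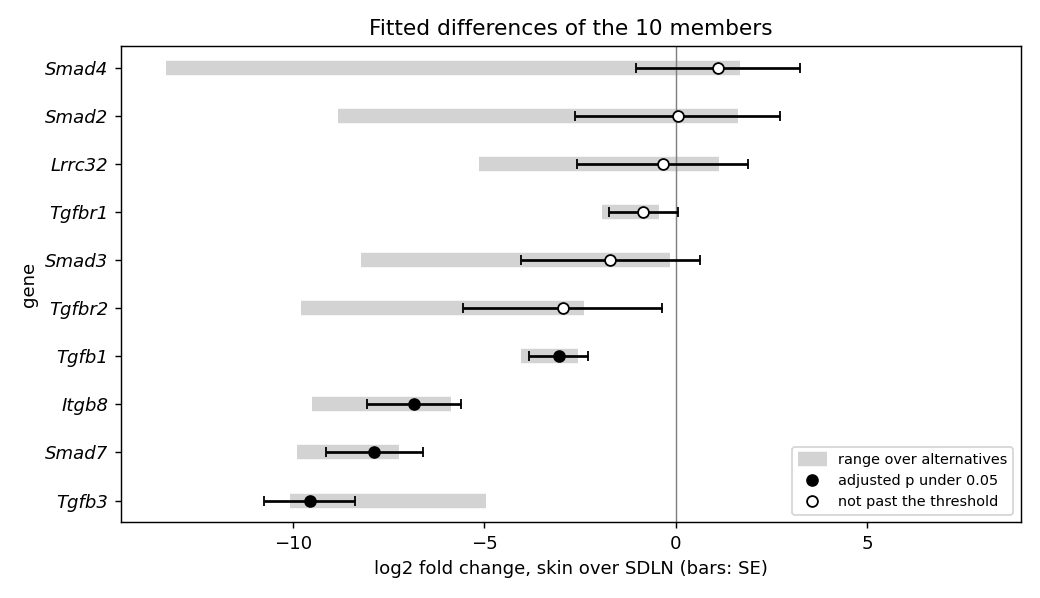
Log2 fold change of each member, skin over SDLN, with its SE. Filled points passed an adjusted p of 0.05, open points did not, and grey bars span the values over the alternatives. The 4 filled points, Tgfb3, Smad7, Itgb8 and Tgfb1, lie below 0, and the grey bars are widest for Smad4, Smad2 and Smad3. Values of Tgfb3, Smad7 and Itgb8, near 0 counts in skin, depend on the prior count of the fit.

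Within SDLN Tregs, levels per length ordered the members from the GARP gene to the ligands. Lrrc32 was first at 65.6 ± 32.0 CPM per kilobase of exon (SD, n = 3 here and below), followed by Tgfbr1 at 38.3 ± 16.0, Tgfbr2 at 15.0 ± 6.04, Smad3 at 8.2 ± 2.25 and Smad2 at 7.73 ± 0.855. Smad7 was at 6.62 ± 1.30, Smad4 at 5.45 ± 1.30, Itgb8 at 1.93 ± 1.20, Tgfb1 at 1.27 ± 0.738 and Tgfb3 at 0.645 ± 0.272 CPM per kilobase. The ranges of neighbours in this order overlapped except between Tgfbr1 and Tgfbr2 and between Smad4 and Itgb8.

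A further 49 genes of the pathway were counted from a fixed list, of which 37 were tested. Among these, 16 were called lower in skin and 1 higher with edgeR, the remaining 20 not passing the threshold, beside the background shares given above. Of the 16, 15 did not exceed the floor in any skin library, as held for 5801 of the 6142 genes called lower in the whole table. By role, the genes called lower were 0 of 1 tested among other ligand and latency genes, 2 of 5 in release and processing (Itgb3 and Itgb5), 4 of 8 co-receptors and receptor regulators (Tgfbr3, Eng, Zfyve9 and Tgfbrap1) and 1 of 2 among BMP Smads and Smad6 (Smad1). They were 0 of 5 corepressors, 2 of 6 ubiquitin ligases and related enzymes (Smurf1 and Nedd4l), 4 of 7 response genes (Nt5e, Gpr15, Id1 and Id3) and 3 of 3 in the TAK1 arm (Map3k7, Tab1 and Tab2). With 45.3% of all tested genes called lower and so few genes to a role, nothing is read from these differences. Tgif1, a homeodomain corepressor of Smad-driven transcription, was the gene called higher. It was at 593, 334 and 791 CPM in skin (A to C) and at 42.4, 62.4 and 45.0 CPM in SDLNs (A to C). The lowest skin library lay well above the highest SDLN library. Its log2 fold change was 3.56 (SE 0.690, edgeR adjusted p = 0.00742). It passed in 15 of 16 alternatives, over which the adjusted p lay between 1.12e-10 and 0.0796. The myeloid markers given above were higher in the same libraries, and their part in the Tgif1 difference was not tested.

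The other pathway genes over 3 counts in all 6 libraries were Itgav, Itgb1, Furin, Fkbp1a, Ski, Skil, Itgae and Id2, none of which passed the threshold in edgeR with all libraries. Being over the floor in skin was the condition for this selection, so it leaves out genes that are low there. Furin, the protease that cuts the TGF-β precursor, was at 234, 147 and 149 CPM in skin (A to C) and at 32.2, 42.0 and 17.2 CPM in SDLNs (A to C). The groups did not overlap, yet the log2 fold change, 2.49 with an SE of 1.06, gave an edgeR adjusted p of 0.119. Furin was called higher with DESeq2 (adjusted p = 3.58e-05) and limma voom (adjusted p = 0.0466). Itgav, the α chain that pairs with the Itgb8 product, was at 87.5, 192 and 258 CPM in skin and at 70.5, 89.2 and 41.3 CPM in SDLNs (log2 fold change 1.56, SE 1.04, adjusted p = 0.349). Skin Tregs A fell within the SDLN range for this gene.

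Of the other Smad corepressors, Ski averaged 282 ± 224 in skin and 86.9 ± 13.6 CPM in SDLNs (SD, n = 3 each), with an adjusted p of 0.244 in edgeR and no overlap between the groups, and was called higher with DESeq2 (adjusted p = 0.0165). Skil, itself induced by TGF-β, was at 695, 26.1 and 469 CPM in skin and at 435, 426 and 334 CPM in SDLNs, an overlap with a log2 fold change of -0.11 (SE 1.04). Itgb1, a widely used integrin β chain, was at 795 ± 779 and 512 ± 59.3 CPM, and Fkbp1a, which binds the type I receptor, at 682 ± 265 and 418 ± 44.0 CPM (SD, n = 3 each). Their edgeR adjusted p-values were 0.805 and 0.346.

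Among genes that answer TGF-β, Itgae encodes the CD103 integrin chain. It was at 141, 328 and 72.6 CPM in skin (A to C) and at 204, 250 and 148 CPM in SDLNs (A to C), with a log2 fold change of -0.17 (SE 0.859, edgeR adjusted p = 0.956). The ranges overlapped. Id2 and Id3, inhibitors of E proteins, were not compared with each other. Id2 was at 519, 58.0 and 324 CPM in skin and at 63.7, 76.6 and 68.6 CPM in SDLNs, and did not pass (log2 fold change 2.00, SE 0.984, edgeR adjusted p = 0.182). Id2 was called higher with DESeq2 (adjusted p = 0.0222) and without skin Tregs B (adjusted p = 0.0326). Id3 had 0, 0 and 1 counts in skin against 273, 256 and 156 CPM in SDLNs, and was at least 494-fold lower in skin (edgeR adjusted p = 0.00595).

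The remaining genes with the highest SDLN levels among those called lower in skin were Nt5e, Tab2, Itgb3 and Tab1. Nt5e, which encodes the ectoenzyme CD73, had 0, 0 and 4 counts in skin (A to C) and was at 427, 654 and 276 CPM in SDLNs (A to C) (edgeR adjusted p = 0.00955). Tab1 and Tab2, adaptors of the kinase TAK1 that TGF-β can activate beside the Smads, were at the floor in skin and at 35.6 ± 4.29 and 44.5 ± 9.81 CPM in SDLNs (SD, n = 3). Itgb3, another β chain that pairs with the αv chain, had 0 counts in skin and 36.4 ± 16.5 CPM in SDLNs (SD, n = 3), and was at least 78.7-fold lower. The 4 genes lay at or near the floor in every skin library.

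**Figure D4:**
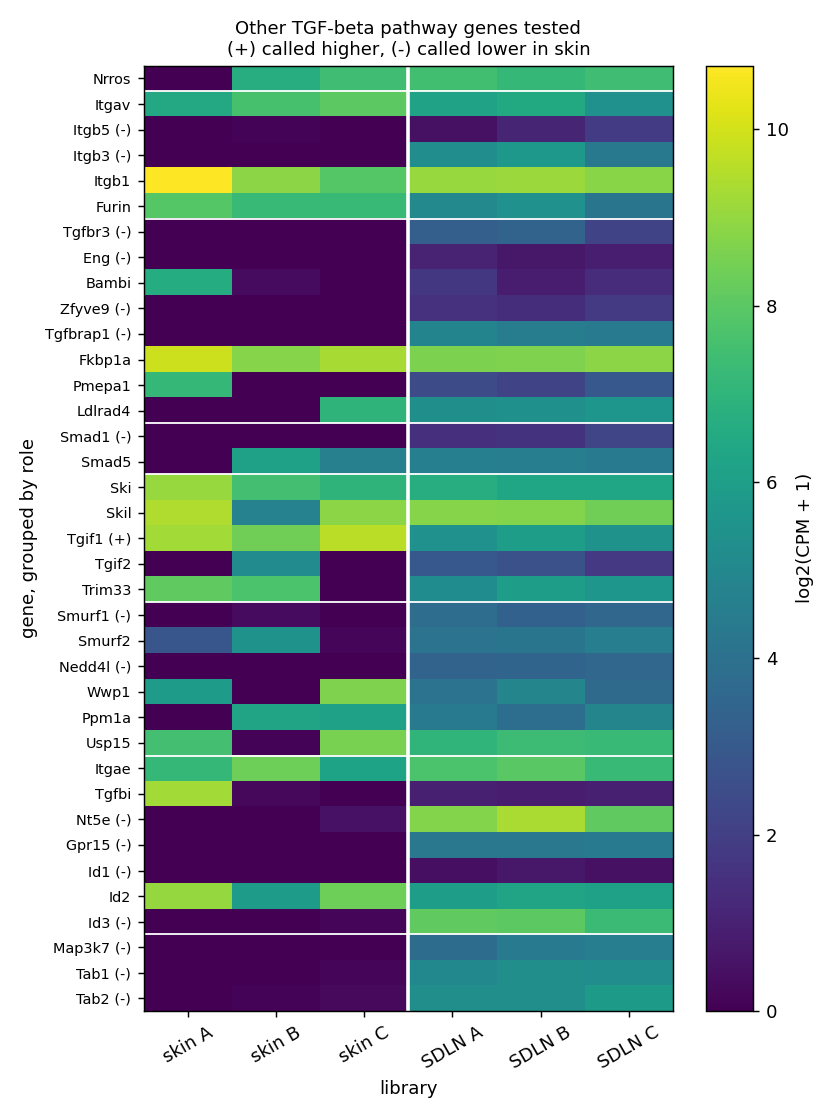
Level of the 37 tested pathway genes outside the 10 members, as log2(CPM + 1), in skin and SDLN libraries A, B and C. Rows are grouped by role, with (+) for the 1 gene called higher in skin and (-) for the 16 called lower. Genes marked (-) are near 0 in all skin libraries, while others, such as Bambi, Pmepa1 and Ldlrad4, stand out in a single skin library.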

How the data were processed

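The deposited values are raw read counts per Ensembl gene. The authors trimmed reads with Trimmomatic 0.36, mapped them to GRCm38 with STAR 2.5.2b and counted uniquely assigned exon reads with featureCounts (Subread 1.5.2). Annotation release, strand setting and molecular identifiers are not given in the sources used here, so intervals cover counting error only, and reads of overlapping antisense genes cannot be told apart. Symbols, positions and exon lengths came from GENCODE M21 (GRCm38), which named 49056 of 49315 genes. Depth is given with the results.

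Columns carry letters and the titles numbers, so libraries were assigned to groups only. CPM is relative to the library total. Counts were tested with edgeR 4.0.16 (filterByExpr, TMM, robust quasi-likelihood fit, tissue as the only term) in R 4.3.3, with Benjamini-Hochberg adjustment over all 13572 genes and a threshold of 0.05. The SE was derived from the F statistic. The study's methods state no test for this table. P-values measure the spread between pooled samples, and whether both tissues came from the same mice is not stated.

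The members, the pathway and marker lists, the tests and the alternatives were chosen with earlier results of these data known. Besides the members, the text names Foxp3, Cd3g and the leading gene in skin of each marker list, pathway genes over 3 counts in every library, those called higher in skin, and the 5 called lower with the highest SDLN mean. The other T cell, endothelial and platelet markers, the other genes listed by role and those seen in 1 skin library were named after their values were seen. Alternatives were DESeq2 1.42.0, limma 3.58.1 voom, other scalings, filters and dispersions, drawing down, a block, leaving out each library and, added after the data were seen, skin library B alone. No protein sequences were used here.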

Additional observations from a re-analysis of the deposited data

How the results depend on the processing

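The number of members called lower in skin, 4, became 0 when 10 counts were required of every library, since Tgfbr1 was the single member left to be tested. It lay between 4 and 5 when single libraries were dropped, beside 40.1% to 48.9% of all genes tested. After drawing down it was 3 of 9 members tested, beside 38.7% of all genes, and Tgfb3 was no longer tested. With limma voom it was 5, beside 53%. The number of pathway genes called lower, 16, was also 0 with 10 counts required of every library. That filter left 9 pathway genes to be tested and none of these 16, so that both zeros were fixed by it. The number of pathway genes called higher in skin, 1, was 4 with DESeq2 (Furin, Ski, Tgif1 and Id2), 2 with limma voom (Furin and Tgif1) and 0 with the replicate block, while the share of all tested genes called higher went from 1.04% to 2.98%, 0.936% and 0.449%. That number of pathway genes lay between 1 and 2 when single libraries were dropped (Id2 was added without skin Tregs B). The number of members called higher was 0 in 15 of 16 alternatives.

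The remaining alternative, added after the data were seen, kept skin library B alone, since Foxp3 and Cd4 were at or under 3 counts in A and C. It called 7 members lower and 1 higher (Smad2, log2 fold change 1.62, adjusted p = 0.00202), and of 42 pathway genes tested 19 lower and 9 higher (Itgav, Furin, Smad5, Ski, Tgif1, Tgif2, Trim33, Smurf2 and Ppm1a), beside 46% lower and 10.6% higher of all 18473 genes in that fit. Smad4, with 0 counts there, changed sign (log2 fold change -13.31, adjusted p = 0.000319), as did Lrrc32 (1.13, adjusted p = 0.128), and Tgfbr1 and Tgfbr2 were called lower (adjusted p = 0.0480 and 0.000242). Tgfb1, Tgfb3, Smad7 and Itgb8 were called lower in it too.

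The Tgfb1 call was lost with limma voom (log2 fold change -2.78, adjusted p = 0.0522), without skin Tregs B (-2.93, adjusted p = 0.0560) and with the replicate block (-3.36, adjusted p = 0.184), against -3.07 as reported. Smad2 changed sign with library size only (log2 fold change -0.019), no filter (-0.011), drawing down (-0.11), limma voom (-5.74), the replicate block (-7.30), without SDLN Tregs A (-0.017) or C (-0.10) and without skin Tregs B (-8.83), from 0.044. Leaving out 1 library moved it between -8.83 and 0.50. Smad4 changed sign with limma voom (-0.36) and the replicate block (-0.070), and Lrrc32 without skin Tregs A (0.076), with -3.61 without skin Tregs B as the lowest value of that kind. Smad3 was also called lower with limma voom (log2 fold change -5.86, adjusted p = 0.0233), as was Smad2 (adjusted p = 0.0476). The cause of these changes was not tested.

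The block used the column letters, which no label links to the title numbers. Deviations of same-lettered libraries correlated at 0.046, -0.010 and 0.091 for A, B and C over 13572 genes. Those of libraries with other letters ran from -0.082 to 0.051. Values so near 0 cannot tell whether same letters mark pairs. The main test left pairing out because no label gives it. With the block 3 members were called lower in skin and 0 higher, beside 41.5% and 0.449% of all genes tested. The depth of the skin libraries limits Tgfb3 most, since 8.18 counts would fall in skin Tregs A at the SDLN mean level.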

Other observations

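SDLN Tregs B was the highest library for 7 of the 10 members, against 45.3% of all genes tested, and SDLN Tregs C the lowest for 7 of 10, against 46.7%. Foxp3 was likewise highest in B, at 139 CPM, and lowest in C, at 37.8 CPM. Tgfb3 and Smad4 were highest in A, at 3.11 and 25.8 CPM, and Smad7 in C, at 34.8 CPM, while Tgfb1 was lowest in A and Smad4 and Smad7 in B. These are descriptions over 3 libraries, with no test.

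The genes whose level over the 6 libraries was most like that of Tgfb1 were Pank3, Gm38244, Zdhhc21, Kat6b and Zfp862-ps, with Pearson's r of log2(CPM + 1) of 0.980, 0.978, 0.977, 0.976 and 0.975 among 8274 genes averaging 10 CPM or more. The first 4 were at 0 to 0.886 CPM in every skin library and highest in SDLN Tregs B, as Tgfb1 was, at 34.8, 71.5, 72.7 and 54.0 CPM. Zfp862-ps was at 4.0 to 5.31 CPM in skin. The points share libraries that differ in depth.

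Other genes were seen in 1 skin library alone. Tgfbi, which encodes an extracellular matrix protein induced by TGF-β, was at 598 CPM in skin Tregs A and at 0.170 and 0 CPM in B and C, against 0.896 ± 0.0747 CPM in SDLNs (SD, n = 3). Pmepa1, a feedback inhibitor of the pathway, was at 140 CPM in skin Tregs A and 0 in B and C, against 4.98 ± 1.62 CPM in SDLNs (SD, n = 3). Bambi, a pseudoreceptor for TGF-β family ligands, was at 98.4, 0.255 and 0 CPM in skin (A to C). Neither Tgfbi, Pmepa1 nor Bambi passed the threshold in edgeR (adjusted p = 0.210, 0.628 and 0.345). Ldlrad4, another inhibitor of TGF-β signalling, was at 126 CPM in skin Tregs C and 0 in A and B. These 4 genes were singled out after their values were seen.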
